A study of Oryza sativa with 32 samples.

Results

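The transcripts of rice panicles, the flowering heads of the plant, were compared between dawn and 3.5 h after dawn. The comparison takes the 4 libraries titled dawn and the 4 titled 3.5 h after dawn, grouped by their labels, which is 8 of the 32 libraries of a day-long series of 8 times. The plants were untreated Oryza sativa IR64, an indica variety, grown on a field plot in the Philippines in the dry season, and the panicles were taken at 50% flowering. Both groups share the variety, the field, the stage and the absence of treatment, and they differ by the time of harvest as labelled. In the field, light, temperature and the time of day move together and cannot be told apart in this design. Nothing in the labels states that the replicates are different plants, and p-values therefore speak only for the spread among libraries, some of which may be technical. That spread was estimated within the times of all 32 libraries and not from the 8 libraries alone. A panicle holds many tissues, and in such bulk samples fewer cells of a type and less RNA per cell cannot be told apart. Library totals ran from 11516321 to 24989522 counts at dawn and from 14071253 to 31038966 counts at 3.5 h. Levels are CPM, a gene's share of its library's counts on the usual scale with library sizes scaled by TMM factors. They are not corrected for gene length and are compared here between times for the same gene and not between genes.

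The plant circadian clock is a set of transcription factors that repress one another in turn through the day. LHY, a MYB-type factor, acts around dawn, the pseudo-response regulators (PRR proteins) follow one after another and repress LHY-type genes, and GI and the evening complex act later in the day. In the same hours leaves and green floral parts begin photosynthesis, and heat shock factors, aquaporins and hormone genes are known in plants to respond to light, warmth and water loss.

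The tissue label was checked against genes that specify floral organs. All 14 floral organ identity genes with a checked name were measured, and their summed level ran from 2559 to 3360.1 CPM at dawn and from 3283 to 4112 CPM at 3.5 h. MADS1 (OS03G0215400), a gene for the lemma and palea of the rice floret, stood at 837, 886, 893 and 551 CPM in dawn replicates 1 to 4 and at 935, 988, 1015 and 878 CPM in the 3.5 h replicates. Dawn replicate 4 stood apart from the other libraries of its time. Its log2 levels correlated with theirs at Pearson's r of 0.851 to 0.924 across genes, which are not independent replicates, against 0.956 to 0.975 among the other dawn libraries. The summed level of the 4 mature pollen markers was 15.8 CPM in dawn replicate 4, against 656 to 1991 CPM in the other dawn libraries and 756 to 2771 CPM at 3.5 h. The pollen gene EXPB9 (OS10G0548600), a beta-expansin of grass pollen, stood at 14.6 CPM in that library and at 646, 1682 and 1959 CPM in the others. EXPB9 is one of the 4 markers and made up most of their sum in each dawn library. Replicate 4 of 3.5 h had r of 0.909 to 0.940 to the others of its time, against 0.940 to 0.979 among those others. Results are given with all libraries. Without both libraries numbered 4, the counts of calls in each direction were the same as with all libraries for the clock, light-harvesting, chlorophyll, abscisic acid, aquaporin, sugar, starch synthesis, cold and dehydration, and tapetum lists, and the counts that moved are given with their lists.

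Of 25766 genes tested, 2966 (11.5%) differed between 3.5 h and dawn in edgeR's quasi-likelihood test with Benjamini-Hochberg adjustment at 0.05. Of these, 1409 rose (5.47% of the genes tested) and 1557 fell (6.04%). The median size of the change, as an absolute log2 difference, was 1.00 among the genes that rose and 0.61 among those that fell. A change of at least 2-fold was found for 957 genes (3.71%), 709 that rose (2.75%) and 248 that fell (0.963%), and one of at least 8-fold for 75 and 20 genes. The libraries of the times did not overlap for 1059 of the genes that rose and 995 of those that fell, and over all genes tested this held for 3117 (12.1%). Genes that rose held 6.22 ± 0.372% of a library's counts at dawn and 11.7 ± 1.04% at 3.5 h, and genes that fell held 8.64 ± 0.546% and 5.08 ± 0.470% (SD, n = 4 each). The split between rises and falls depended on the scaling. Rises made up 47.5% of the calls with TMM factors, 51.1% with relative log expression factors and 30.1% with no scaling beyond the library total, which moved the median log2 difference of all genes from -0.01 to -0.14. With only the 8 libraries fitted, where 23145 genes passed the filter on low counts and the spread came from these libraries alone, 627 genes were called (435 higher, 192 lower), of which 617 were among the 2966. Without both libraries numbered 4, 3482 genes were called (1641 higher, 1841 lower), of which 2592 were among the 2966. Without dawn replicate 2 the count was 1970, with 928 lower, and without 3.5 h replicate 3 it was 2058, with 928 higher.

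**Figure D1:**
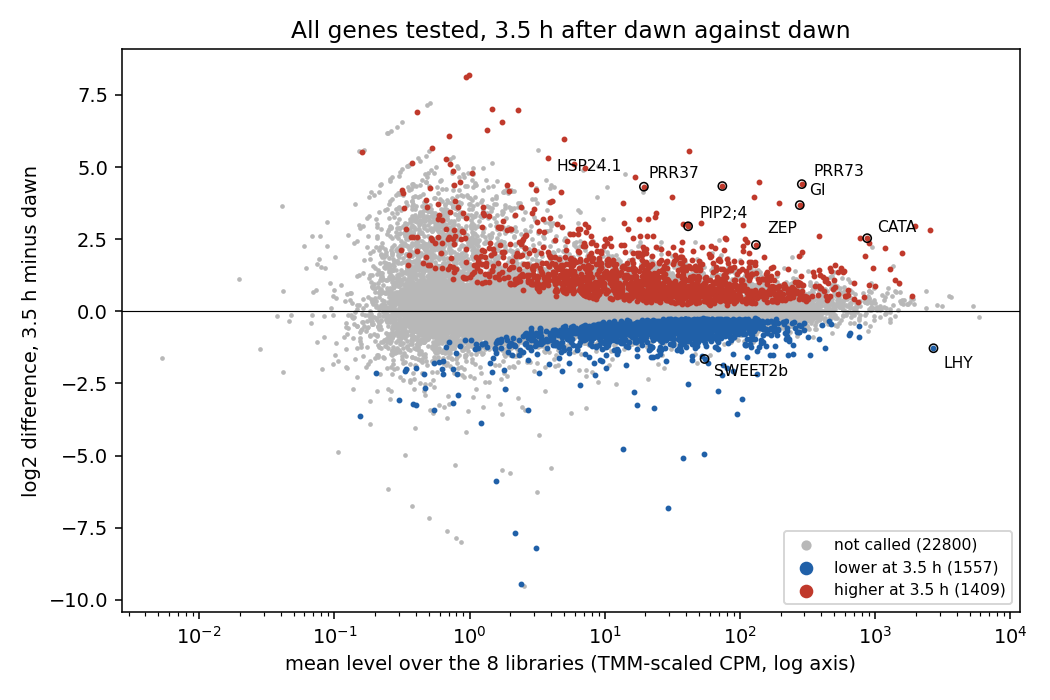
Mean level over the 8 libraries (TMM-scaled CPM, log axis) against the log2 difference between 3.5 h and dawn for the 25766 genes tested, with each point 1 gene and circles around 9 genes described in the text. The 1409 genes called higher reach further from 0 than most of the 1557 called lower.

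Most clock genes with a checked name changed in the morning. Of 8 such genes, 5 rose, 1 fell and 2 did not pass the test, where 11.5% of all genes tested were called. Their median log2 difference was 1.61 against -0.01 for all genes. Other genes of the clock list, some of the evening complex among them, had no checked name and were not counted. LHY (OS08G0157600) stood at 3719.8, 5292, 4183 and 2113 CPM in the dawn replicates and at 1671, 1464, 1631 and 1529.8 CPM at 3.5 h. All 3.5 h libraries lay below all dawn libraries, and the spread was 1319 CPM (SD) at dawn and 94.5 CPM at 3.5 h. The fall was 1.28 ± 0.368 on the log2 scale (SE, adjusted p = 0.023). This call was lost without dawn replicate 2 (adjusted p = 0.0821), without 3.5 h replicate 2 (0.0603) and with only the 8 libraries (0.07), while the log2 difference kept its sign. Over all genes, 2221 (8.62%) were called between 3.5 h and 7 h, 1364 higher (5.29%) and 857 lower (3.33%). The level of LHY went on falling: from 3.5 h to 7 h, a comparison that shares the 3.5 h libraries, its log2 difference was -3.62, and its mean was 128 CPM at 7 h.

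4 PRR genes rose. PRR73 (OS03G0284100) stood at 26.8, 25.0, 35.4 and 15.9 CPM at dawn and at 539, 567, 616 and 469 CPM at 3.5 h. PRR37 (OS07G0695100), its close relative, went from 6.07, 7.40, 5.82 and 8.71 CPM to 148, 143, 130.0 and 144 CPM. For both genes every library at 3.5 h lay more than an order of magnitude above every dawn library. The log2 differences were 4.41 ± 0.228 for PRR73 (adjusted p = 2.69e-13) and 4.34 ± 0.198 for PRR37 (adjusted p = 2.40e-14). PRR95 (OS09G0532400) rose from 28.5 ± 11.5 to 125 ± 26.5 CPM, a log2 difference of 2.13 ± 0.262 (adjusted p = 4.23e-06). PRR1 (OS02G0618200), the rice counterpart of the Arabidopsis clock gene TOC1, rose the least, from 15.1 ± 4.72 to 32.0 ± 2.78 CPM (log2 difference 1.09 ± 0.171, adjusted p = 0.000107). Differences between the PRR genes themselves were not tested. In the next interval the log2 differences were -0.04 for PRR73 and 0.30 for PRR37, neither past the threshold, and 1.34 for PRR95 and 1.35 for PRR1, both past it.

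GI (OS01G0182600), a large plant protein of the clock and of day-length sensing, stood at 32.1, 42.0, 33.7 and 52.5 CPM at dawn and at 467, 559, 643 and 387 CPM at 3.5 h. The groups did not overlap, and the log2 difference was 3.68 ± 0.170 (adjusted p = 2.40e-14). The evening complex genes with a checked name did not pass the test. LUX (OS01G0971800), the DNA-binding member of the complex, stood at 1.73 ± 0.875 and 1.15 ± 0.512 CPM (log2 difference -0.55 ± 0.417, adjusted p = 0.418). ELF3-1 (OS06G0142600), its scaffold protein, stood at 56.5 ± 14.1 and 45.5 ± 3.04 CPM (log2 difference -0.31 ± 0.159, adjusted p = 0.21). ELF3-1 passed without dawn replicate 4 and with no scaling, among 5 of 20 alternatives. All 5 clock genes that rose also passed with only the 8 libraries.

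**Figure D2:**
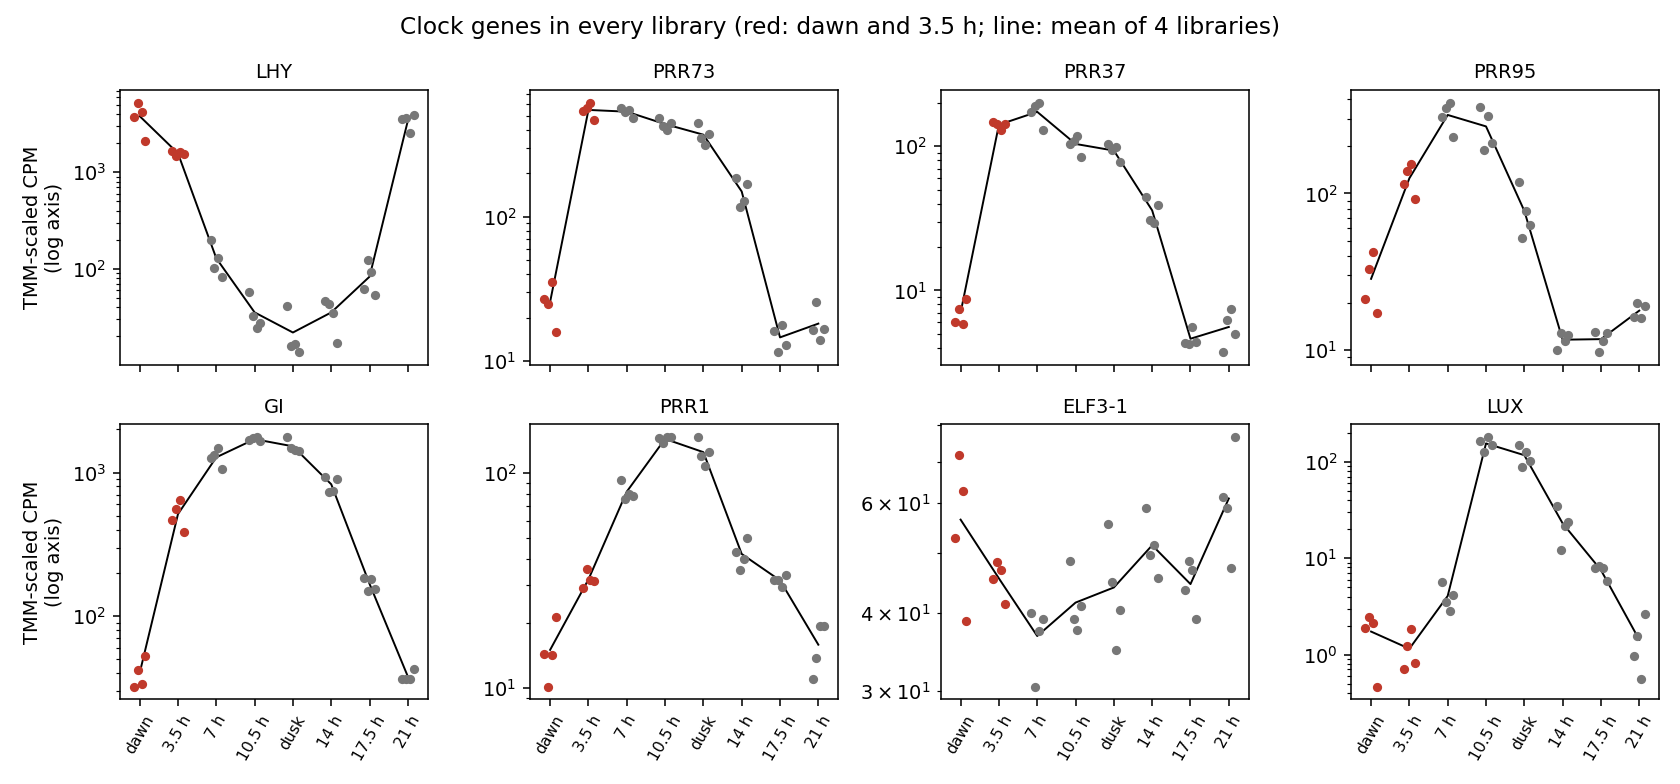
Levels of the 8 clock genes with a checked name (TMM-scaled CPM, log axis) at the 8 sampling times in order. Each point is 1 library, red for dawn and 3.5 h, and the line runs through the means of 4 libraries. PRR73, PRR37 and GI stand far apart between dawn and 3.5 h, LHY has its steep fall after 3.5 h, and LUX is low at both times.

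The genes of light capture with a checked name rose together, while the genes of carbon fixation with a checked name did not pass the test. Other genes of both lists, among them all antenna genes of photosystem I, had no checked name and were not counted. All 3 light-harvesting genes with a checked name rose, and their summed level ran from 649 to 3437 CPM at dawn and from 4695 to 13362 CPM at 3.5 h. These genes encode chlorophyll-binding proteins of the photosystem II antenna. LHCB1-c (OS09G0346500) stood at 343, 1246, 675 and 307 CPM at dawn and at 5503, 4718, 5321 and 2363 CPM at 3.5 h. The 3.5 h libraries lay above all dawn libraries, and replicate 4 was the lowest library at each time. Its log2 difference was 2.80 ± 0.425 (adjusted p = 6.64e-05). LHCB1-a (OS01G0600900) rose by 2.94 ± 0.553 on the log2 scale (adjusted p = 0.000734) and LHCB2 (OS03G0592500) by 2.03 ± 0.410 (adjusted p = 0.0015). The LHCB2 libraries overlapped, since dawn replicate 2 held 1219 CPM and 3.5 h replicate 4 held 1201 CPM. With only the 8 libraries, LHCB1-a (adjusted p = 0.0746) and LHCB2 (0.0906) missed the threshold and LHCB1-c passed. The LHCB1 copies are nearly identical, so their counts can be split between copies and are uncertain for each copy.

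Of 11 genes of chlorophyll synthesis, 2 rose and 1 fell (27.3% called, against 11.5% of all genes tested), with a median log2 difference of 0.04. DVR (OS03G0351200), the divinyl reductase, rose from 11.2 ± 2.71 to 26.23 ± 8.17 CPM (log2 difference 1.23 ± 0.220, adjusted p = 0.000413). PORB (OS10G0496900), the enzyme that reduces protochlorophyllide in the light, rose by 1.07 ± 0.253 on the log2 scale (adjusted p = 0.0058) with overlapping libraries, and missed the threshold with only the 8 libraries (0.151). CHLG (OS05G0349700), the chlorophyll synthase at the end of the pathway, fell from 123 ± 14.9 to 93.6 ± 8.91 CPM (log2 difference -0.40 ± 0.111, adjusted p = 0.02). That call was lost without dawn replicate 2 (0.0603) and with only the 8 libraries (0.151). Of the 5 genes of carbon fixation, 0 were called by edgeR, 0 by DESeq2 and 0 had an unadjusted p under 0.05. The rubisco small subunit gene RBCS2 (OS12G0274700) stood at 1847, 6012, 3662 and 637 CPM at dawn and at 5871, 5278, 4302 and 1751 CPM at 3.5 h, and rubisco activase RCA (OS11G0707000) averaged 6271 ± 3282 and 5458 ± 1277 CPM. The lowest adjusted p in that list was 0.25, for TPT (OS01G0239200), the triose phosphate translocator, with a log2 difference of 0.35 ± 0.195. For photorespiration, 0 of 2 genes passed in edgeR, while both had an unadjusted p under 0.05 and both passed in DESeq2 and limma. Without both libraries numbered 4, and without dawn replicate 1, dawn replicate 2 or 3.5 h replicate 4, 1 passed. The glycolate oxidase gene GLO3 (OS04G0623500) stood at 19.4 ± 6.93 and 35.7 ± 5.42 CPM (adjusted p = 0.0539). Of these fits with libraries left out, GLO3 passed only in that without dawn replicate 1, and it passed in 6 of all 20 alternatives. Among 6 genes of photoreceptors and light signalling, 1 rose (16.7% called, near the 11.5% of all genes tested). There were 1 higher and 1 lower without both libraries numbered 4. LIR1 (OS01G0102900), which encodes a light-regulated chloroplast protein, went from 16.7, 29.8, 19.7 and 7.78 CPM to 80.4, 91.0, 134 and 40.0 CPM (log2 difference 2.22 ± 0.370, adjusted p = 0.000194).

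Many heat shock genes rose. Of 43 heat shock factor and chaperone genes with a checked name, 36 had enough counts to be tested, 13 rose, 0 fell and 23 did not pass, a called share of 36.1% against 11.5% of all genes. At an unadjusted p under 0.05 there were 18 genes, and DESeq2 called 13 higher and 1 lower. The list's median log2 difference was 0.55. The summed level of the list ran from 691 to 769 CPM at dawn and from 1327 to 1502 CPM at 3.5 h, so the groups stood apart. Without both libraries numbered 4, 13 genes rose and 1 fell, and with only the 8 libraries 10 rose.

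Heat shock factors are transcription factors of the heat response, and those of class A switch on chaperone genes. Of 20 factors tested, 6 rose: 3 of class A, whose members activate transcription, and 3 of the class B2 group. HSFB2c (OS09G0526600) stood at 9.19, 7.30, 11.2 and 9.25 CPM at dawn and at 75.5, 67.9, 75.8 and 74.7 CPM at 3.5 h. Its groups did not overlap, with a log2 difference of 2.99 ± 0.383 (adjusted p = 6.79e-06). HSFB2b (OS08G0546800) rose by 2.67 ± 0.493 (adjusted p = 0.000609) and HSFB2a (OS04G0568700) by 1.63 ± 0.298 (adjusted p = 0.000552) on the log2 scale. HSFA2a (OS03G0745000) was barely present at dawn, with 0, 1, 1 and 2 counts in replicates 1 to 4, and had 12, 7, 24 and 52 counts at 3.5 h. Its fitted log2 difference of 4.37 ± 0.926 (adjusted p = 0.00229) rests on these few counts and depends on the prior count of the fit, and with only the 8 libraries the gene did not pass the filter on low counts. HSFA3 (OS02G0527300) rose by 1.29 ± 0.228 on the log2 scale (adjusted p = 0.000373) and missed the threshold with only the 8 libraries (0.0605). HSFA2d (OS03G0161900) rose by 0.89 ± 0.281 (adjusted p = 0.0388), a call lost in 8 of 20 alternatives, among them the fits without dawn replicate 1, 3 or 4 and without 3.5 h replicate 1, 2 or 4 (adjusted p between 0.0597 and 0.122).

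Of 16 chaperone genes tested, 7 rose, and 7 were called with only the 8 libraries. HSP24.1 (OS02G0758000), a small heat shock protein of mitochondria, stood at 1.45, 1.01, 2.27 and 2.62 CPM at dawn and at 32.0, 29.8, 41.7 and 45.0 CPM at 3.5 h (log2 difference 4.32 ± 0.563, adjusted p = 8.39e-06). HSP17.9A (OS03G0266300), a small heat shock protein, stood at 26.69, 20.7, 30.0 and 16.3 CPM and then at 147, 131, 142 and 112 CPM (log2 difference 2.502 ± 0.336, adjusted p = 1.27e-05). For both genes all libraries of 3.5 h lay above all libraries of dawn. The small heat shock genes HSP18.0 (OS01G0184100), HSP17.4 (OS03G0266900) and HSP18.1 (OS03G0267000) rose by 2.73 ± 0.491, 2.22 ± 0.555 and 1.92 ± 0.463 on the log2 scale. HSP90-1 (OS08G0500700), of the HSP90 family of folding chaperones, rose from 196 ± 68.0 to 503 ± 64.7 CPM (log2 difference 1.36 ± 0.217, adjusted p = 0.000127). HSP101 (OS05G0519700), a disaggregating chaperone, rose from 28.3 ± 5.65 to 65.3 ± 11.9 CPM (log2 difference 1.20 ± 0.200, adjusted p = 0.00019). The small heat shock genes of chromosome 3 lie in a cluster of near copies, so their names and counts are uncertain for each copy. From 3.5 h to 7 h, with the 3.5 h libraries shared, the log2 differences were -1.37 for HSFB2c, -1.84 for HSFB2a and -1.25 for HSP101, all past the threshold. In the same interval they were -0.67 for HSP24.1 and -0.98 for HSP17.9A, neither past it, and 1.55 for HSFA3, which passed.

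Of 7 genes of enzymes that remove hydrogen peroxide and other reactive oxygen species, 2 rose and 5 did not pass (28.6% called, against 11.5% of all genes tested). The count was 4 without dawn replicate 4 and 3 without both libraries numbered 4. The catalase gene CATA (OS02G0115700) stood at 265, 258, 313 and 193 CPM at dawn and at 1318, 1611, 1802 and 1225 CPM at 3.5 h (log2 difference 2.53 ± 0.199, adjusted p = 2.17e-09). APX2 (OS07G0694700), a cytosolic ascorbate peroxidase, stood at 366, 255, 348 and 324 CPM and then at 985, 825, 709.7 and 824 CPM (log2 difference 1.37 ± 0.160, adjusted p = 1.78e-06). Neither gene's groups overlapped, and both calls held in all 20 alternatives.

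**Figure D3:**
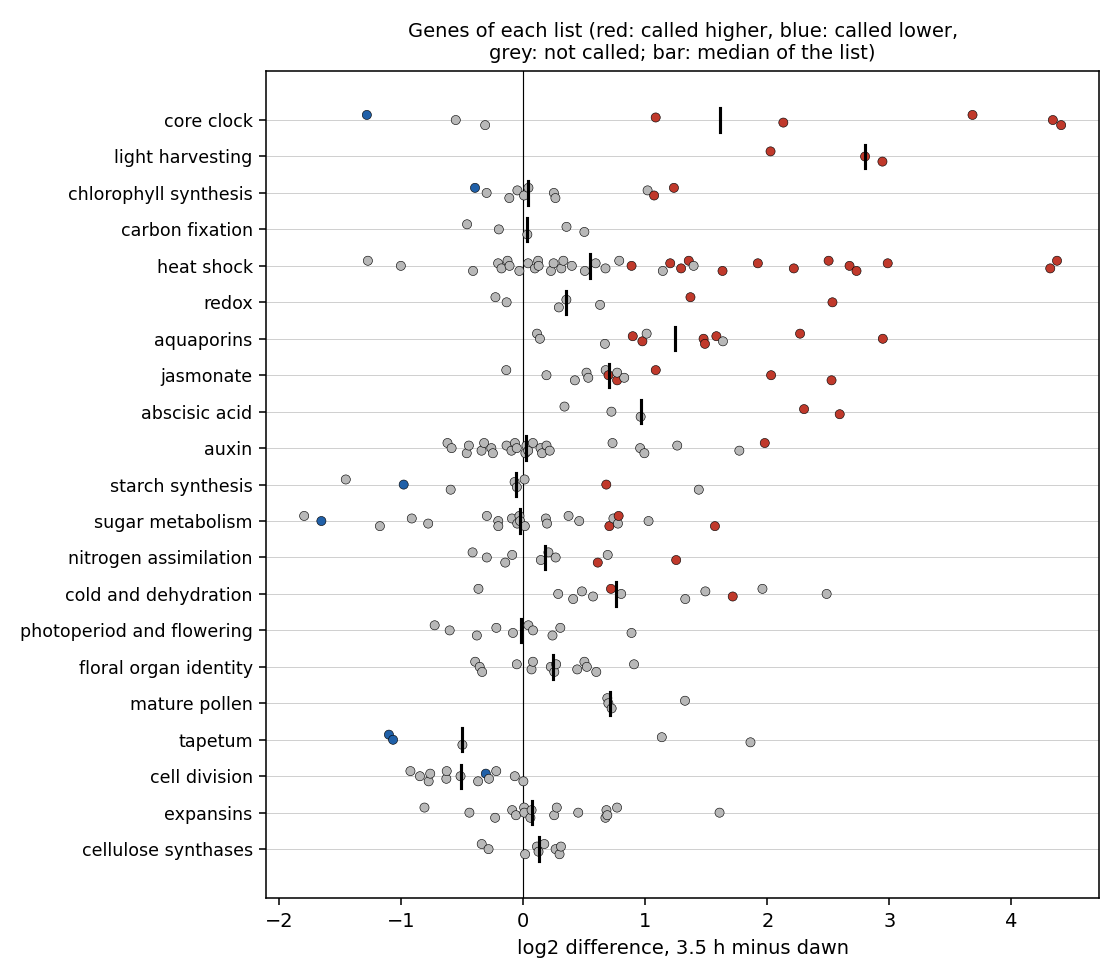
Log2 difference between 3.5 h and dawn for every tested gene of 21 lists, with each point 1 gene, red for called higher, blue for called lower and grey for not called, and a bar at each list's median. The calls of the heat shock, aquaporin and jasmonate lists all lie above 0, and the carbon fixation, photoperiod, floral organ, pollen, expansin and cellulose synthase lists hold none.

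Aquaporins are channel proteins that pass water across membranes. All 12 aquaporin genes tested were higher at 3.5 h by the sign of the log2 difference, with a median of 1.24. By the test 7 of them rose (58.3% called, against 11.5% of all genes tested). The summed level of the list ran from 2537 to 4653 CPM at dawn and from 5058 to 8831 CPM at 3.5 h. Of 10 plasma membrane aquaporins, 5 rose. PIP1;2 (OS04G0559700) stood at 1051, 1034, 1261 and 700.1 CPM at dawn and at 2022, 1887, 2392 and 1659 CPM at 3.5 h (log2 difference 0.98 ± 0.215, adjusted p = 0.00316). PIP2;4 (OS07G0448100) stood at 9.54, 8.01, 15.4 and 4.86 CPM and then at 81.4, 57.3, 100.4 and 53.9 CPM (log2 difference 2.95 ± 0.427, adjusted p = 3.63e-05). Neither gene's libraries overlapped between the times. PIP2;7 (OS09G0541000) rose by 2.27 ± 0.444 (adjusted p = 0.0011), PIP2;5 (OS07G0448200) by 1.58 ± 0.455 (adjusted p = 0.023) and PIP2;1 (OS07G0448800) by 0.90 ± 0.217 (adjusted p = 0.00714) on the log2 scale. Both tonoplast aquaporins tested rose, which sit in the vacuole membrane: TIP1;1 (OS03G0146100) from 245 ± 42.8 to 689 ± 135 CPM (log2 difference 1.49 ± 0.192, adjusted p = 7.31e-06) and TIP2;2 (OS06G0336200) from 120.5 ± 49.1 to 335 ± 151 CPM (1.48 ± 0.460, adjusted p = 0.0356). Without both libraries numbered 4 the count stayed at 7, and with only the 8 libraries it was 3, namely PIP2;4, PIP2;7 and TIP1;1. Calls were lost without 3.5 h replicate 3 for PIP2;1 (adjusted p = 0.051), PIP2;5 (0.0722) and TIP2;2 (0.157), a count of 4. PIP2;5 was also lost without dawn replicate 1, 2 or 4 or 3.5 h replicate 1 (0.0509 to 0.0797), and TIP2;2 without dawn replicate 1, 2 or 4 or 3.5 h replicate 1 or 2 (0.0504 to 0.105). PIP2;4 and PIP2;5 are neighbours on chromosome 7, and their names cannot be told apart by place. In the next interval, which shares the 3.5 h libraries, the log2 differences were -1.07 for PIP1;2, -1.65 for PIP2;4 and -0.73 for TIP1;1, while that for PIP2;7 was 1.86, all past the threshold.

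Some hormone genes rose in the jasmonate and abscisic acid lists and, with a single exception, none passed in the auxin list. Jasmonate is a lipid-derived hormone of stress responses and of flower opening in rice. Of 13 jasmonate genes, 5 rose and 0 fell (38.5% called, against 11.5% of all genes tested), and 8 had an unadjusted p under 0.05. The synthesis gene AOC (OS03G0438100), the allene oxide cyclase, stood at 68.0, 92.3, 78.2 and 60.1 CPM at dawn and at 190.5, 137, 198 and 108 CPM at 3.5 h. Its groups did not overlap, and the log2 difference was 1.09 ± 0.176 (adjusted p = 0.000149). The TIFY (JAZ) genes encode repressors of jasmonate signalling, and 3 of 6 tested rose. TIFY11C (OS03G0180900) stood at 35.9, 13.9, 31.2 and 9.71 CPM at dawn and at 175, 106, 226 and 17.65 CPM at 3.5 h (log2 difference 2.53 ± 0.678, adjusted p = 0.0151). Replicate 4 of 3.5 h lay within the range of the dawn libraries, and the other 3 lay above it. TIFY11B (OS03G0181100) rose by 2.03 ± 0.651 (adjusted p = 0.0414), TIFY10C (OS09G0439200) by 0.77 ± 0.215 (adjusted p = 0.0196) and the synthesis gene AOS1 (OS03G0767000) by 0.70 ± 0.219 (adjusted p = 0.0369) on the log2 scale. The count of 5 was 6 without both libraries numbered 4 and 1 with only the 8 libraries, where AOC remained. It was also 1 without dawn replicate 2 and without 3.5 h replicate 3: in these fits the adjusted p was 0.0575 and 0.0635 for TIFY11C, 0.0818 and 0.166 for TIFY11B, 0.0829 and 0.0619 for TIFY10C, and 0.127 and 0.164 for AOS1. It was 2 without 3.5 h replicate 1 and 3 without dawn replicate 1, dawn replicate 3 or 3.5 h replicate 2, and with no scaling it was 3.

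Abscisic acid is the plant hormone of water deficit. Of 5 genes of its synthesis and breakdown, 2 rose (40.0% called, against 11.5% of all genes tested), and all 5 had a log2 difference above 0. ZEP (OS04G0448900), the zeaxanthin epoxidase of the xanthophyll cycle and of the hormone's precursor pathway, stood at 34.6, 69.9, 41.7 and 31.0 CPM at dawn and at 225, 239.9, 170.4 and 237 CPM at 3.5 h (log2 difference 2.301 ± 0.209, adjusted p = 3.77e-08). ABA8ox3 (OS09G0457100), a hydroxylase that breaks the hormone down, stood at 5.06, 5.98, 7.54 and 2.24 CPM and then at 20.0, 38.6, 46.0 and 21.5 CPM (log2 difference 2.59 ± 0.576, adjusted p = 0.00349). Neither gene's groups overlapped, and both calls held in all 20 alternatives. ZEP acts in synthesis and ABA8ox3 in breakdown. Of 26 auxin genes, 1 rose, with 2 higher and 1 lower without dawn replicate 4 and 2 higher without both libraries numbered 4. The gene that rose, GH3.2 (OS01G0764800), which joins auxin to amino acids, stood at 21.5, 24.2, 29.9 and 20.3 CPM at dawn and at 81.3, 94.2, 104 and 99.2 CPM at 3.5 h (log2 difference 1.98 ± 0.314, adjusted p = 0.000118). Of 22 Aux/IAA repressor genes, 0 were called by edgeR, 0 by DESeq2 and 6 had an unadjusted p under 0.05. Of 6 gibberellin genes, 0 were called by edgeR, 1 by DESeq2 and 1 had an unadjusted p under 0.05, and the lowest adjusted p was 0.0897 for SLR1 (OS03G0707600), the DELLA repressor, at 168 ± 57.0 and 319 ± 126 CPM.

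Genes of cold and dehydration responses had 2 rises among 12 tested (16.7% called), near the 11.5% of all genes tested, and 1 with only the 8 libraries. DREB2B (OS05G0346200), a transcription factor of drought and heat responses, rose from 41.1 ± 8.38 to 67.6 ± 7.14 CPM (log2 difference 0.72 ± 0.116, adjusted p = 0.000146), with an adjusted p of 0.055 with only the 8 libraries. LEA3 (OS05G0542500), a late embryogenesis abundant protein, rose from 9.37 ± 2.78 to 30.9 ± 10.9 CPM (log2 difference 1.72 ± 0.481, adjusted p = 0.0197). The LEA3 call was lost without dawn replicate 1 (adjusted p = 0.0609), dawn replicate 2 (0.0729) or 3.5 h replicate 1 (0.0733).

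**Figure D4:**
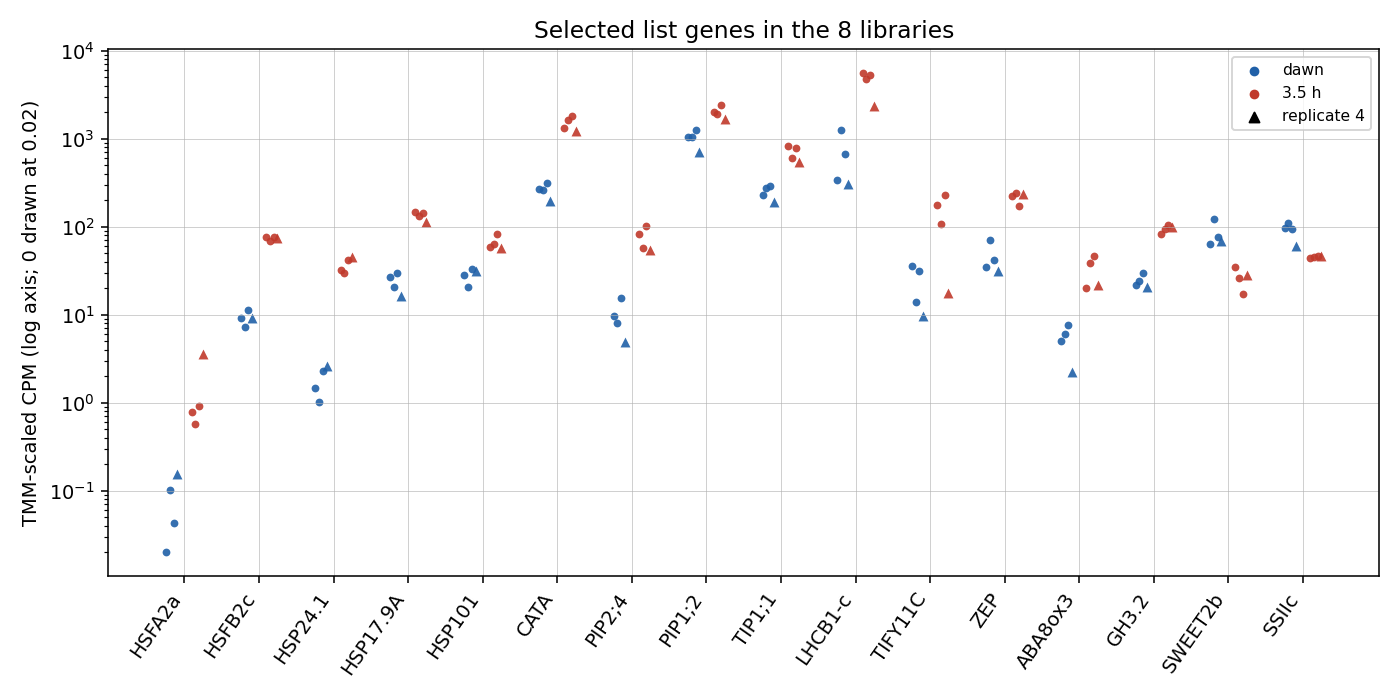
Levels of 16 list genes (TMM-scaled CPM, log axis, with 0 drawn at 0.02) in the 4 dawn libraries (blue) and the 4 libraries of 3.5 h (red), with triangles for replicate 4. The groups stand apart for all but TIFY11C, where the 3.5 h replicate 4 at 17.65 CPM lies among the dawn libraries, and SWEET2b and SSIIc are the genes that are lower at 3.5 h.

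Most genes of sugar metabolism and starch did not pass the test. Of 23 genes of sugar metabolism and transport, 3 rose and 1 fell, a share near the 11.5% of all genes tested that were called, with a median log2 difference of -0.03. SWEET2b (OS01G0700100), of the SWEET family of sugar transporters, stood at 63.9, 123, 75.8 and 69.4 CPM at dawn and at 34.6, 25.8, 16.94 and 28.2 CPM at 3.5 h. The groups did not overlap, and the log2 difference was -1.65 ± 0.289 (adjusted p = 0.000351). SWEET16 (OS03G0341300), of the same family, rose from 21.2 ± 10.9 to 63.0 ± 33.1 CPM (log2 difference 1.57 ± 0.486, adjusted p = 0.0345) with overlapping libraries. CIN1 (OS02G0534400), a cell wall invertase that splits sucrose outside the cell, rose from 184 ± 14.0 to 316 ± 51.4 CPM (0.78 ± 0.168, adjusted p = 0.00264). SUS2 (OS06G0194900), a sucrose synthase, rose from 320.4 ± 97.5 to 523 ± 93.7 CPM (0.71 ± 0.228, adjusted p = 0.0426). SUS2 lost its call in 11 of 20 alternatives, including those without dawn replicate 2 or 4 or 3.5 h replicate 2 or 3 (adjusted p from 0.0502 to 0.165). SWEET16 lost it in 6, including those without dawn replicate 1 or 4 or 3.5 h replicate 1, 2 or 3 (0.0576 to 0.115).

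Of 8 starch synthesis genes, 1 rose and 1 fell (25.0% called, against 11.5% of all genes tested), and both encode starch synthases of type II. SSIIc (OS10G0437600) stood at 95.1, 109, 93.6 and 59.7 CPM at dawn and at 43.8, 44.7, 46.9 and 45.8 CPM at 3.5 h (log2 difference -0.98 ± 0.156, adjusted p = 0.000122). SSIIb (OS02G0744700) stood at 44.3, 60.6, 47.8 and 53.3 CPM and then at 89.3, 83.1, 84.4 and 72.9 CPM (log2 difference 0.68 ± 0.167, adjusted p = 0.00802). Neither gene's groups overlapped, and SSIIb missed the threshold with no scaling (adjusted p = 0.0653). Of 5 amylase genes of starch breakdown, 1 had enough counts to be tested, AMY3D (OS08G0473900) at 0.334 ± 0.228 and 1.22 ± 0.438 CPM (adjusted p = 0.14). Among 10 nitrogen assimilation genes, 2 rose (20.0% called, against 11.5% of all genes tested). There were 2 higher and 1 lower without both libraries numbered 4. AMT2-1 (OS05G0468700), an ammonium transporter, rose from 5.92 ± 1.76 to 14.2 ± 4.11 CPM (log2 difference 1.25 ± 0.292, adjusted p = 0.00529). GS1;1 (OS02G0735200), the cytosolic glutamine synthetase, rose by 0.61 ± 0.168 on the log2 scale (adjusted p = 0.0173) with overlapping libraries. With only the 8 libraries neither passed (adjusted p = 0.0688 for AMT2-1 and 0.219 for GS1;1), and GS1;1 was also lost with no scaling (0.193), without dawn replicate 2 (0.0714), dawn replicate 3 (0.0597) or 3.5 h replicate 4 (0.0657).

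Lists of flower development and growth held few calls. Of 14 floral organ identity genes, 0 were called by edgeR, 1 by DESeq2 and 2 had an unadjusted p under 0.05, and the lowest adjusted p was 0.0682 for MADS5 (OS06G0162800), at 74.6 ± 14.2 and 58.3 ± 5.04 CPM. MADS5 passed as lower at 3.5 h in 8 of 20 alternatives, with adjusted p = 0.00592 without dawn replicate 4, 0.0478 without 3.5 h replicate 4, 0.00506 without both and 0.0261 with no scaling. Of 10 photoperiod and flowering genes, 0 were called by edgeR, 2 by DESeq2 and 2 had an unadjusted p under 0.05. MADS18 (OS07G0605200), a meristem and flowering gene, was closest, at 107, 156, 103 and 81.6 CPM at dawn and 91.0, 82.6, 83.9 and 86.2 CPM at 3.5 h (adjusted p = 0.0519). It passed as lower in 7 of 20 alternatives, with adjusted p = 0.00478 without dawn replicate 4, 0.012 without both libraries numbered 4 and 0.0171 with no scaling. Of 17 expansin genes, which loosen cell walls, 0 were called by edgeR, 0 by DESeq2 and 2 had an unadjusted p under 0.05, with the lowest adjusted p of 0.101 for EXPB4 (OS10G0556100). Of 9 cellulose synthase genes, 0 were called by edgeR, 0 by DESeq2 and 0 had an unadjusted p under 0.05, and the lowest adjusted p was 0.348 for CESA5 (OS03G0837100). With the pollen list as a covariate 3 cellulose synthase genes and 1 expansin gene were called higher, and 0 of either list in the other alternatives. Of 2 flavonoid genes, 0 passed in edgeR, in DESeq2 or at an unadjusted p under 0.05 (log2 difference 0.60 ± 0.401, adjusted p = 0.349 for the chalcone isomerase gene CHI, OS03G0819600). CHI stood at 32.1, 11.4, 21.4 and 73.4 CPM at dawn, highest in replicate 4. It passed without dawn replicate 4 (log2 difference 1.27, adjusted p = 0.0243), without both libraries numbered 4 (1.20, adjusted p = 0.0465) and with the pollen list as a covariate (1.20, adjusted p = 0.00144).

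The pollen markers spread widely between the libraries of a time. Of the 4 mature pollen markers, 0 were called by edgeR, 0 by DESeq2 and 0 had an unadjusted p under 0.05. EXPB9 averaged 1075 ± 905 and 1744 ± 895 CPM at the earlier and the later time, and MADS63 (OS06G0223300), MADS62 (OS08G0494100) and MADS68 (OS11G0658700), factors of late pollen development, had log2 differences of 1.33 ± 1.18, 0.69 ± 0.991 and 0.72 ± 1.03. With the mean of this list as a covariate, 4306 genes were called, of which 2824 were among the 2966. The tapetum is the nursing layer of the anther, and 2 of 5 tested tapetum genes fell (40.0% called, against 11.5% of all genes tested). UDT1 (OS07G0549600), an early tapetum factor, stood at 3.74, 5.17, 2.74 and 6.09 CPM at dawn and at 1.67, 1.72, 2.45 and 2.33 CPM at 3.5 h (log2 difference -1.10 ± 0.263, adjusted p = 0.00641). CYP703A3 (OS08G0131100), an enzyme of the pollen wall, had 68 counts in all dawn libraries together and 32 in those of 3.5 h (-1.07 ± 0.301, adjusted p = 0.0207). TDR (OS02G0120500), a later tapetum factor, did not pass (1.86 ± 1.09, adjusted p = 0.284) and stood at 0.0771 CPM in dawn replicate 4. Both falls were lost with only the 8 libraries (adjusted p = 0.11 for UDT1 and 0.16 for CYP703A3), and CYP703A3 also without dawn replicate 2 (0.055), dawn replicate 3 (0.0834) or 3.5 h replicate 4 (0.0604).

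Of 13 cell division genes, 12 had a log2 difference below 0 and 1 was called: CDKA-1 (OS03G0118400), a cyclin-dependent kinase, fell from 37.7 ± 2.77 to 30.5 ± 3.33 CPM (log2 difference -0.31 ± 0.0894, adjusted p = 0.0246). The call was lost without both libraries numbered 4 (0.0818), with only the 8 libraries (0.202) and without dawn replicate 1 or 4 or 3.5 h replicate 1 or 3 (0.0527 to 0.0773). The replication gene MCM5 (OS02G0797400) stood at 69.2, 31.7, 44.2 and 63.4 CPM at dawn and at 25.1, 29.8, 18.5 and 36.7 CPM at 3.5 h, with overlapping groups (adjusted p = 0.122). The summed level of the division list ran from 302 to 692 CPM at dawn, lowest in replicate 2, and from 246 to 537 CPM at 3.5 h, highest in replicate 4. The storage protein gene GluA2 (OS10G0400200), a glutelin of the endosperm, fell from 5.71 ± 1.61 to 3.59 ± 0.705 CPM (log2 difference -0.66 ± 0.182, adjusted p = 0.0171), a call lost without dawn replicate 1 (0.0567), dawn replicate 2 (0.0797) or 3.5 h replicate 3 (0.0603), and with only the 8 libraries (0.216). The part of such markers in the results above was not tested beyond the pollen covariate and the fits that leave libraries out. Among 3 genes often used as references, GAPDH (OS08G0126300), a glycolytic enzyme, rose from 1533 ± 84.7 to 2237 ± 185 CPM (log2 difference 0.55 ± 0.122, adjusted p = 0.00362). That call was lost with no scaling (0.0543), on the deposited CPM (0.0749 and 0.0821) and with only the 8 libraries (0.179). The actin gene ACT1 (OS03G0718100) stood at 491 ± 55.7 and 633 ± 168 CPM (adjusted p = 0.452). The remaining gene, EEF1A, stood at 411 ± 35.0 and 412 ± 68.0 CPM and was not called.

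Among all genes called, without overlap of the libraries and with a mean of at least 1 CPM, the widest falls and rises belonged to 4 identifiers that the files give no name. OS04G0583900 stood at 95.9, 69.0, 79.1 and 51.4 CPM at dawn and at 0.644, 3.44, 2.38 and 2.33 CPM at 3.5 h (log2 difference -5.08 ± 0.381, adjusted p = 9.19e-10). OS03G0348200 stood at 19.8, 133, 34.6 and 235 CPM and then at 3.09, 3.77, 3.79 and 2.87 CPM (log2 difference -4.96 ± 0.725, adjusted p = 4.07e-05). The dawn libraries of OS03G0348200 spread over an order of magnitude, while its 3.5 h libraries lay close together. OS11G0130200 had 2 counts in all dawn libraries together and 219 at 3.5 h, a ratio of 99.9 per count sequenced with a 95% interval of 27.3 to 830.3. OS11G0171350 also had 2 counts at dawn and 293 at 3.5 h, a ratio of 134 with an interval of 36.7 to 1109. These exact Poisson intervals cover counting error only. The 3.5 h libraries of OS11G0171350 held 13.5, 2.79, 1.80 and 0.137 CPM, so replicate 4 lay near the dawn level, and its call was lost without dawn replicate 1, 2 or 3 or 3.5 h replicate 1 (adjusted p between 0.0545 and 0.0781).

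The remaining times of the day show where the genes called in the morning stood otherwise. Their dawn and 3.5 h levels are set by the way they were chosen, so only the other 6 times are informative. Among those 6, the highest mean fell at 7 or 10.5 h for 1165 of the 1409 genes that rose (82.7%), against 30.0% of the genes not called. The lowest mean fell at 7 or 10.5 h for 1107 of the 1557 genes that fell (71.1%), against 30.0% of the genes not called. The median gene that rose stood at 0.50 relative to its mean of the 8 times at 7 h and at -0.30 at 21 h on the log2 scale, and the median gene that fell stood at -0.20 and 0.13. These are descriptions with no test.

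**Figure D5:**
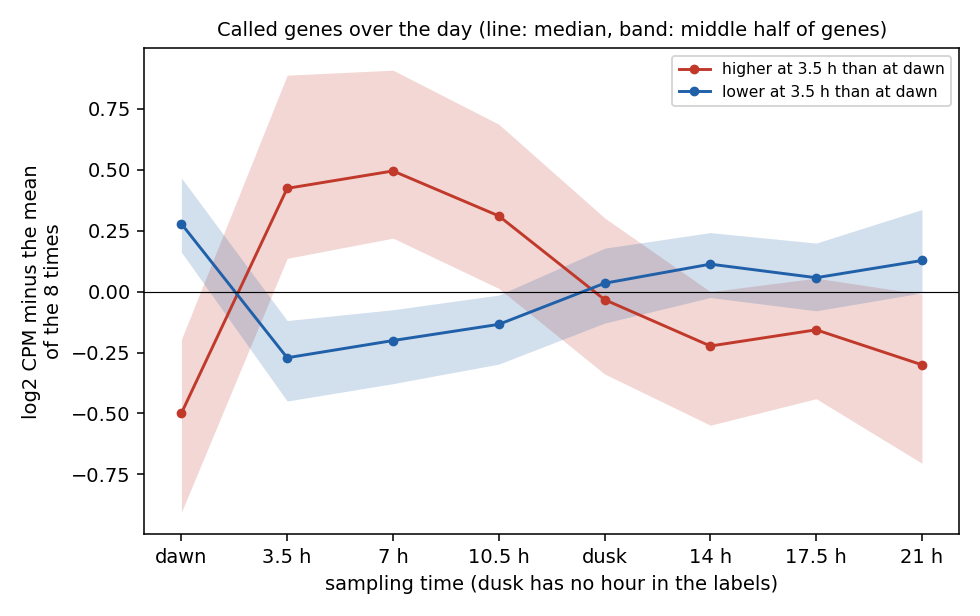
Log2 CPM relative to each gene's mean over the 8 times, in order of sampling, for the 1409 genes called higher (red) and the 1557 called lower (blue) at 3.5 h than at dawn, with the line at the median gene and the band from the lower to the upper quartile of genes. The values at dawn and 3.5 h follow from the choice of genes, and the medians stay on the same side of 0 as at 3.5 h until 10.5 h.

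The interval from 17.5 to 21 h, which ends before dawn and shares no library with the morning comparison, had 2208 called genes (8.57%), 1299 higher (5.04%) and 909 lower (3.53%). This split turned over with the scaling, to 835 higher and 1675 lower with no scaling and to 832 and 2013 on the deposited CPM with a pseudocount of 1, and the shares below use the TMM fit. Of the 1409 genes that rose in the morning, 257 (18.2%) were lower at 21 h than at 17.5 h, which is 28.3% of the genes lower in that interval, and 112 (7.95%) were higher, which is 8.62% of the higher ones. Of the 1557 genes that fell in the morning, 234 (15.0%) were higher at 21 h, which is 18.0% of the higher ones, and 46 (2.95%) were lower, which is 5.06% of the lower ones. The overlap is given without a test. Genes of the lists differed in this respect. The aquaporin genes PIP1;2, PIP2;1, PIP2;4, PIP2;5 and TIP1;1 were already higher at 21 h than at 17.5 h, with log2 differences of 1.38, 1.43, 2.85, 4.54 and 0.97, while PIP2;7 was lower by the test, with -2.77. LHCB1-c, LHCB2 and ZEP were also higher at 21 h (2.46, 3.18 and 0.81), while LHCB1-a did not pass (1.02). Among the heat shock factors that rose, HSFA2d, HSFB2a and HSFB2c were higher (1.61, 1.13 and 1.20) and HSFA3 was lower (-1.26). HSFA2a and HSFB2b did not pass (-1.33 and -0.06). CATA and GI were lower at 21 h (-1.03 and -2.14), and LHY was higher (5.38). PRR73 and PRR37 did not pass in that interval (0.31 and 0.27). SWEET2b, which fell in the morning, was higher at 21 h than at 17.5 h by 6.96 on the log2 scale, with 114 ± 31.0 CPM at 21 h.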

How the data were processed

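RNA selected by poly(A) was sequenced from panicles with a library kit that keeps the strand, per the labels' protocols. The read counts per gene were deposited by the authors, who used TopHat2 version 2 and HTSeq version 0.6.0 with the build IRGSP-1.0, per the submitters' processing notes. That build is of japonica rice and the plants were indica, which can lower the counts of divergent genes. No source used here gives the annotation release or the strand setting of the counting, so overlapping and antisense genes cannot be told apart. The deposited CPM table holds each count divided by its library's total and served only for alternatives. Counting error is smallest in the deepest libraries.

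Of 37829 identifiers, 3564 were at 0 in all libraries. All 32 libraries were fitted with edgeR 4.0.16 (R 4.3.3) with 1 mean per time, TMM factors, its default filter on low counts and the quasi-likelihood test, and p-values were adjusted by Benjamini and Hochberg at 0.05. The SE is the log2 difference divided by the root of the F statistic. The script was tested on simulated data. Alternatives used limma 3.58.1, DESeq2 1.42.0, other scalings, filters, covariates and fits with libraries left out. Tables and figures were made with Python 3.11.15.

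Libraries were grouped by their labels, and the members, as the comparison to describe, and the 28 gene lists were chosen with earlier results of these data known. Symbols came from these lists and were kept where a RefSeq table of assembly ASM3414082v1 placed them on the same chromosome at a like rank, within 3% of its genes. Of 396 pairs, 293 passed, and 3 pollen markers not in that table (MADS62, MADS63 and MADS68) were used unchecked. Neighbouring paralogues cannot be told apart by place. Named were all clock genes with a checked name. From each other list came up to 3 genes with the lowest adjusted p, or the lowest where none passed. The 10 list genes with the largest changes and 2 unnamed identifiers each way were also named. The other genes of the heat shock, aquaporin, jasmonate, sugar, carbon fixation, floral, pollen, tapetum, division and reference lists that are named were added after their values were seen. A search of promoters was not run.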

Additional observations from a re-analysis of the deposited data

Results flagged for a closer look

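In 8 of 186 groups of 4 libraries, 1 library stood far from the other 3 by Dixon's test, and chance flags about 1 group in 20. At 3.5 h, PORB stood at 123 CPM in replicate 4, against 270.0 to 299 CPM in the others. CHLG stood at 80.4 CPM in replicate 3, against 97.0 to 99.8 CPM. HSFB2c stood at 67.9 CPM in replicate 2, against 74.7 to 75.8 CPM. CYP703A3 stood at 0.274 CPM in replicate 4, against 0.492 to 0.536 CPM. HSFA2a stood at 3.56 CPM in replicate 4, against 0.574 to 0.920 CPM. At dawn, HSFB2b stood at 3.25 CPM in replicate 3, against 0.710 to 1.14 CPM. TIFY11B stood at 2.08 CPM in dawn replicate 4, against 8.92 to 10.1 CPM, and MADS1 at 551 CPM in that library, against 837 to 893 CPM.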

How the results depend on the processing

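Over the named genes, 1520 of 1678 alternative values kept their direction and their side of the threshold, 121 lost the call, 33 gained it and 4 changed sign. The sign changes were CESA5 without dawn replicate 4 (log2 differences from -0.5121 to 0.0239 over the fits without 1 library), RCA without dawn replicate 2 (from -0.4298 to 0.18), and MADS62 (-0.0937) and MADS68 (-0.24) with the pollen list as a covariate. None of these 4 genes was called. With only the 8 libraries, 435 genes were higher and 192 lower, in a fit with fewer samples and fewer genes tested. With the pollen covariate 2122 were higher at 3.5 h, and 1317 were lower at 7 h than at 3.5 h, where DESeq2 gave 1663. At 21 h against 17.5 h, 835 were higher and 1675 lower with no scaling, 830 and 1995 on the deposited CPM with a pseudocount of 0.5, and 832 and 2013 with 1; the cause was not tested. Leaving out 1 library at a time, the counts ran from 928 to 1765 higher and 928 to 1933 lower at 3.5 h, from 756 to 1526 and 410 to 1139 at 7 h, and from 852 to 1983 and 538 to 1402 at 21 h. Same-numbered deviations from the time means correlated at -0.13, 0.33, 0.55 and 0.37. Those of dawn and 3.5 h libraries with different numbers correlated at -0.51 to 0.44. Whether the replicate numbers pair the libraries was not tested, and the main fit used no pairing. With the replicate block, 3270 genes were called, 2865 of them among the 2966, and SUS2 had an adjusted p of 0.0546. Genes with few counts, such as HSFA2a, are limited by depth.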
